A study of Homo sapiens with 2 samples.

Results

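The genes described here are CD320, PSAT1, PSPH, GCSH and MTHFD1L, which bring vitamin B12 into the cell, make serine, split glycine and load single-carbon units onto folate. They were taken by gene symbol from the platform annotation, and all 5 were found among the 14812 named genes of the array, with 1 probe set each. The group holds 1 uptake receptor, that for vitamin B12, and 4 enzymes or enzyme components, and no transporter of serine or folate. The genes were chosen with their values in these arrays known, so their differences are a description and carry no test.

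RNA was measured in BE(2)C, a human neuroblastoma line with amplified MYCN, grown in DMEM with foetal calf serum. A culture given MYCN siRNA (1 array) was set against a culture given control siRNA (1 array); both were transfected with Lipofectamine 2000, and RNA was isolated at 36 hours. The control array's title carries the word reanalysis, which the labels do not explain, and every difference below uses that array. The MYCN siRNA array's title ends in a number that the title does not explain. Whether the arrays are a matched pair is not known here. The labels name a single MYCN siRNA product, and the control siRNA came from another supplier, so the target, the siRNA sequence and the supplier cannot be told apart. The arrays were Affymetrix Human Gene 2.0 ST, which read each transcript with a set of short probes in 1 colour; values are the authors' deposited log2 values after RMA, a normalization that makes the arrays' distributions alike.

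Cells make serine from a glycolytic intermediate in a chain of reactions: PHGDH oxidises it, PSAT1 adds the amino group and PSPH removes the phosphate. Serine is then split to glycine, and glycine is split by the glycine cleavage system, both passing a single carbon to tetrahydrofolate; in mitochondria MTHFD1L releases that carbon as formate for purine and thymidylate synthesis in the cytosol. Vitamin B12 enters most cells bound to transcobalamin through the receptor CD320, and serves methionine synthase, which takes its methyl group from folate. Proliferating tumour cells, MYCN-amplified neuroblastoma among them, are known for high use of serine and of these folate reactions.

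CD320, PSAT1, GCSH and MTHFD1L were lower in the MYCN siRNA array than in the control array, and PSPH was slightly higher. These 4 of 5 lower genes stand beside 48.0% of all measured genes that were lower. The log2 differences, MYCN siRNA minus control siRNA, spanned from −1.69 for CD320 to 0.30 for PSPH, with a median of −0.91. CD320 and GCSH were at least 2-fold lower, as were 1.16% of the 10592 measured genes, and 4 of the 5 were at least 1.5-fold lower, as were 5.79% of measured genes; nothing is read from these counts, since the genes were chosen on these values. A gene counts as measured when its value reached the array's median over all rows in either array (4.55 in the MYCN siRNA array, 4.60 in the control array). All 5 passed, GCSH through the control array alone, in which it was higher.

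**Figure D1:**
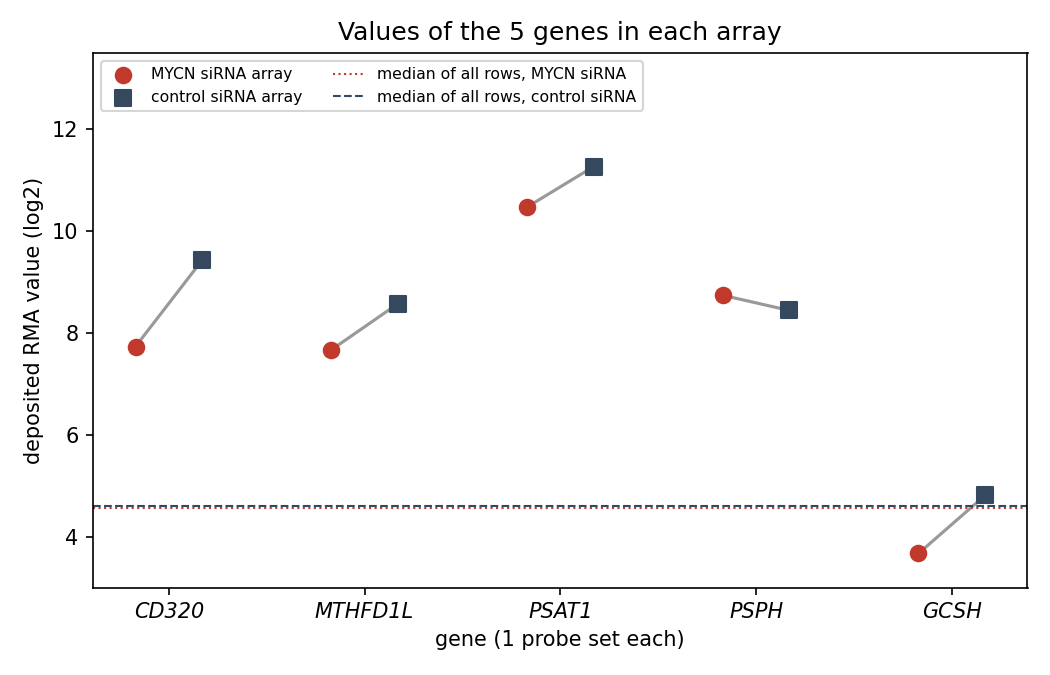
Deposited RMA values (y axis, log2) of the 5 genes in the MYCN siRNA array (red circles) and the control siRNA array (dark squares); a line joins the 2 values of a gene, and the horizontal lines mark each array's median over all rows. The red circle is the lower of the pair for CD320, MTHFD1L, PSAT1 and GCSH and the higher for PSPH. GCSH lies at 3.67 in the MYCN siRNA array, under the median of 4.55, and at 4.81 in the control array, just above the median of 4.60.

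With 1 array per group, no difference has a replicate, and precision is limited by how few arrays there are. The spread between probe sets of the same gene is the only one these data hold: over 374 measured protein-coding genes with more than 1 probe set, the SD of the difference was 0.31 per probe set. It leaves out the spread between cultures, and pairs of probe sets with equal values were left out of it. The 5 genes have 1 probe set each and were not matched to those genes in level. Multiples of this SD, and gaps set beside it, therefore give a scale and no test. Markers of adrenergic neuroblastoma were present, with 9 of 9 named ones above the median in both arrays (6.53 to 10.96 in the MYCN siRNA array, 6.47 to 10.73 in the control array). Among them DBH, which makes noradrenaline, differed by 1.45 and ISL1, a transcription factor, by −0.43. Of 19 markers of fibroblast, Schwann, blood, endothelial and epithelial cells, 9 were named here. They lay between 3.83 and 6.92 in the MYCN siRNA array and between 3.12 and 6.54 in the control array, and 5 of them were above the median in both; LUM differed by −1.17 and S100B by 1.02. The part of these markers in the differences below was not tested. Fewer cells of a kind and less RNA per cell cannot be told apart in such bulk RNA.

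The start regions of CD320, MTHFD1L, PSAT1 and GCSH are shown because all 4 were lower in the MYCN siRNA array. They are also the 4 of the 5 genes matched in RefSeq's promoter table; PSPH was not matched. Each window runs from 250 bases before to 50 bases after a transcript start in build GRCh38.p14, 5′ to 3′ on the gene's strand. Capitals mark matches, on either strand, to CACGTG, the E-box that MYC and MYCN bind with MAX, to CACGCG, an E-box variant, and to TGATGNAA, the core of elements that the amino acid stress factor ATF4 binds with C/EBP proteins.
CD320 chr19:8308309-8308608 (- strand): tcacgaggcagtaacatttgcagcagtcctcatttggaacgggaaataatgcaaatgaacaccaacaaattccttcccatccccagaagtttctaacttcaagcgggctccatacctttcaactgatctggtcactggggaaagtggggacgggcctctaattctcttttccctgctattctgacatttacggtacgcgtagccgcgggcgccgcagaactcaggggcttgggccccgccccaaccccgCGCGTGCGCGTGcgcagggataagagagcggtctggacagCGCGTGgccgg
MTHFD1L chr6:150866236-150866535 (+ strand): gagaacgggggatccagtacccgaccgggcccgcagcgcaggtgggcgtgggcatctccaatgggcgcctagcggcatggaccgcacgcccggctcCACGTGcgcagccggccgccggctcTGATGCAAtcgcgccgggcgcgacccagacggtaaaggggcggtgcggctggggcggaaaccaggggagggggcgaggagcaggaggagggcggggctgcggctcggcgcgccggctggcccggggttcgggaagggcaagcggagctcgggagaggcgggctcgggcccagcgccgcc
PSAT1 chr9:78296875-78297174 (+ strand): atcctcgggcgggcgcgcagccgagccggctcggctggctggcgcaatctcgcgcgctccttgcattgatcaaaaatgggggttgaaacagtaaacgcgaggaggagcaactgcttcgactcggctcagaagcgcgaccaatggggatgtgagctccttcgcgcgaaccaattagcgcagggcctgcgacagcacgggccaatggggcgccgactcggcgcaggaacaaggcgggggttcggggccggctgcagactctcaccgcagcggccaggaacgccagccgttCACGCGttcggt
GCSH chr16:81096346-81096645 (- strand): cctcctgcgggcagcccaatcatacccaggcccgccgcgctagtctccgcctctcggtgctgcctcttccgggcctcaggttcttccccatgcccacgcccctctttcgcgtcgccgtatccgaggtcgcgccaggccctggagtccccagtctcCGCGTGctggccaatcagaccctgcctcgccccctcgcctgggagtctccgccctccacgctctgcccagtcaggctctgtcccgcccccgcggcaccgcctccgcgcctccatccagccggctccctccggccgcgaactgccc

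MTHFD1L was the gene whose window held CACGTG, 154 bases before the start, and it also held TGATGNAA, 129 bases before it. RefSeq lists 4 windows for MTHFD1L, and the 3 that overlap one another share both matches; the first listed is printed. CD320 held CACGCG 3 times, in each case on the opposite strand: at the last base before the start and at bases 6 and 40 counted from it. PSAT1 held it once, at base 39 from the start, and GCSH once, 95 bases before it, on the opposite strand. Of all 35116 windows of this length, 7.26% held CACGTG, 11.4% CACGCG and 3.62% TGATGNAA; the 3 motifs do not overlap in the printed windows. The share of G and C was 56.7% in the CD320 window, 76.7% for MTHFD1L, 66% for PSAT1 and 72.7% for GCSH, against a median of 58.7% over all windows. A match describes letters in the window and does not show binding.

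CD320, the cell-surface receptor for transcobalamin-bound vitamin B12, had a log2 value of 7.73 in the MYCN siRNA array, against 9.43 in the control array. The difference of −1.69 (3.24-fold lower) was 5.42 times the probe-set SD. It ranked 6th from the lowest of 10592 measured genes. Of the 1458 genes with a mean level within 0.5 of its own, itself included, no other had a difference as low, and the 5th percentile of their differences was −0.74.

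Of the 9 other listed genes of vitamin B12 uptake 2 were measured, and neither was lower. TCN2, the transcobalamin that CD320 binds, was at 6.27 in the MYCN siRNA array and 5.58 in the control array (difference 0.69, 1.61-fold higher). LMBRD1, which helps vitamin B12 leave the lysosome, was at 9.12 in the MYCN siRNA array and 8.76 in the control array (0.36). CUBN, LRP2 and CBLIF, proteins of intestinal and renal vitamin B12 uptake, lay under the median in both arrays. TCN1, AMN, ABCD4 and ABCC1, also listed under uptake, were not analysed here, nor were MMACHC and MMADHC of processing. Among 6 measured genes of vitamin B12 processing and use, 4 were higher and 2 lower, beside 48.0% of all measured genes that were lower. Of the 4, HCFC1 was at 0.01, and MMUT averages 2 probe sets at 0.33 and −0.01. Nothing is read from this count. MMAA, a mitochondrial chaperone of the adenosylcobalamin pathway, was at 5.61 in the MYCN siRNA array and 5.02 in the control array (0.59, 1.51-fold higher). MTR, the vitamin B12-dependent methionine synthase, was the lowest of the group, at 9.05 in the MYCN siRNA array and 9.48 in the control array (−0.43).

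In serine synthesis, PSAT1 was lower, while PHGDH and PSPH differed by less than the probe-set SD. PSAT1, the phosphoserine aminotransferase, was at 10.5 in the MYCN siRNA array, against 11.3 in the control array. Its difference of −0.79 (1.73-fold lower) was 2.54 times the probe-set SD. It ranked 256th from the lowest of all measured genes, and 5 of the 274 genes near its mean level, itself included, were as low. This is a bright probe set, at the 97.7th percentile of rows in the MYCN siRNA array and the 98.8th in the control array.

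PSPH, the phosphoserine phosphatase that completes the chain, was at 8.74 in the MYCN siRNA array and 8.44 in the control array. The difference of 0.30 (1.23-fold higher) was 0.952 times the probe-set SD, and 22.8% of measured genes were as high or higher. The PSPH difference lay 1.09 above that of PSAT1, and the gap between 2 probe sets of 1 gene had an SD of 0.44. PHGDH, the first enzyme of the chain, stood between them at 9.02 in the MYCN siRNA array and 9.28 in the control array (−0.26). SRR, the racemase that turns L-serine into D-serine, was at 7.60 in the MYCN siRNA array and 6.47 in the control array (1.13, 2.20-fold higher), the highest of the measured list genes. RefSeq lists 4 PSAT1 pseudogenes and 1 PSPH pseudogene, none with a named row here, and whether the probes read any of them was not tested.

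**Figure D2:**
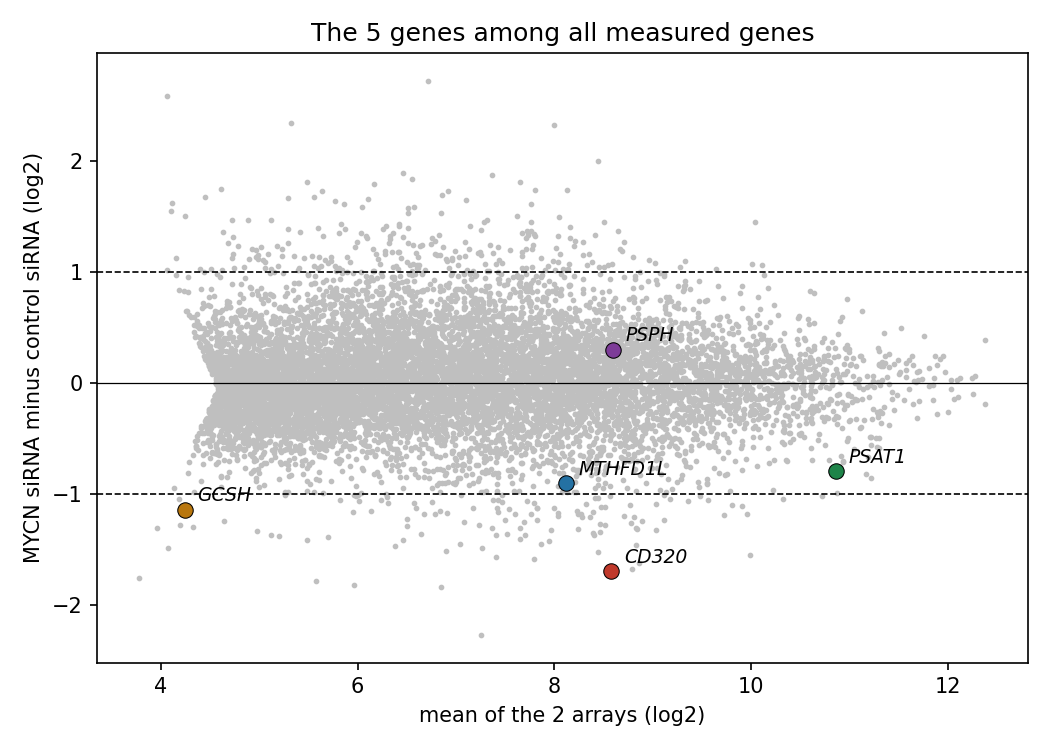
Difference between the MYCN siRNA and the control siRNA array (y axis, log2) against the mean of both arrays (x axis, log2) for the 10592 measured genes in grey, with the 5 genes in colour and dashed lines at 2-fold. CD320 lies at −1.69 below all other genes within 0.5 of its mean level, PSPH at 0.30 lies inside the cloud, and GCSH lies at its dim edge, where the filter on low values gives the cloud its notched shape.

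GCSH, the lipoyl-carrying H protein of the glycine cleavage system, was dim, at 3.67 in the MYCN siRNA array and 4.81 in the control array. The first value lies under that array's median and the second just above its own. The difference was −1.14 (2.21-fold lower). Since a gene this dim passes the filter only through a high value in 1 array, its rank among measured genes is not given; with no filter, 0.56% of all 14812 named genes were as low. It was −0.62 when 16 was added to the linear values, a step that damps dim genes, so its call at 2-fold rests on the scale. RefSeq lists 6 GCSH pseudogenes. The transcribed pseudogene GCSHP3 had 2 rows in the table, 1 at 5.70 in the MYCN siRNA array and 5.73 in the control array (−0.03), the other at 8.66 in the MYCN siRNA array and 8.83 in the control array (−0.16). Which of these transcripts each probe set reads was not tested, so the GCSH value is uncertain.

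The partners of GCSH in glycine cleavage differed by less than the probe-set SD. GLDC, the decarboxylase, was at 4.83 in the MYCN siRNA array and 4.75 in the control array (0.08), and AMT, the aminomethyltransferase, was at 4.83 in the MYCN siRNA array and 4.93 in the control array (−0.10), all of these close to the array medians. DLD, the dehydrogenase that glycine cleavage shares with other mitochondrial complexes, was at 9.56 in the MYCN siRNA array and 9.27 in the control array (0.30). The hydroxymethyltransferases that make glycine from serine were both lower by under 1.5-fold. SHMT2, the mitochondrial enzyme, was at 6.59 in the MYCN siRNA array and 7.05 in the control array (−0.47), and SHMT1, the cytosolic enzyme, differed by −0.41.

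MTHFD1L, the mitochondrial formyltetrahydrofolate synthetase that yields formate, was at 7.67 in the MYCN siRNA array, against 8.57 in the control array. The difference of −0.91 (1.87-fold lower) was 2.90 times the probe-set SD. It ranked 171st from the lowest of measured genes, and 49 of the 1704 genes near its mean level were as low. MTHFD2L, a dehydrogenase and cyclohydrolase of the same compartment, was at 5.43 in the MYCN siRNA array and 5.74 in the control array (−0.32). MTFMT, which spends formyl-folate on the initiator transfer RNA of mitochondria, was at 8.56 in the MYCN siRNA array and 8.13 in the control array (0.43).

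The 6 measured genes listed under cytosolic folate were ATIC, QDPR, FPGS, DHFR2, FTCD and TYMS. They lay close to 0, from ATIC, a purine synthesis enzyme, at −0.24 to TYMS, thymidylate synthase, at 0.04, with none past 1.5-fold. Whether DHFR2 and QDPR act in cytosolic folate use was not tested, so the label may not hold for them. Of folate uptake, FOLR1, a folate receptor, was the measured gene, at 5.38 in the MYCN siRNA array and 5.98 in the control array (−0.60, 1.52-fold lower). FOLR2 and FOLR3 lay under the median in both arrays. The folate carriers SLC19A1 and SLC46A1 were not analysed here, nor were MTHFD1 and MTHFD2.

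Some genes listed under serine transport and under the use of serine and its products gave further low values. Of 10 listed genes of serine and glycine transport 3 were named, all of them sideroflexins. The listed SLC carriers, such as SLC1A4, SLC1A5 and SLC38A2, were not analysed here. SFXN2 and SFXN3, mitochondrial sideroflexins, were at −1.57 (2.97-fold lower) and −0.85 (1.81-fold lower), while SFXN1, an established mitochondrial serine carrier, was at 6.23 in the MYCN siRNA array and 6.22 in the control array (0.01). SFXN2 was at 6.62 in the MYCN siRNA array and 8.19 in the control array. Transsulfuration is the route that joins serine to homocysteine. All 6 measured genes listed under it and the methionine cycle were below 0, as were 48.0% of all measured genes. Of the 6, 2 were at least 1.5-fold lower, against 5.79% of all measured genes, and nothing is read from so small a count. CTH, cystathionine gamma-lyase, was at 5.48 in the MYCN siRNA array and 6.55 in the control array (−1.06, 2.09-fold lower). CBS, cystathionine beta-synthase, was at 8.07 in the MYCN siRNA array and 8.69 in the control array (−0.62, 1.53-fold lower). AHCYL2 was nearest to 0 at −0.02. Median centring moved every difference up by the same amount, CD320 from −1.69 to −1.64, which is enough to put AHCYL2 above 0. Whether the AHCY-like genes AHCYL1 and AHCYL2 act in the cycle was not tested.

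The whole list had 75 genes in 9 roles, of which 45 were named and 38 measured. It was drawn up with earlier results of these data known, so its counts and shares are a description and nothing is read from them. Without the 5 genes, 33 remained, with a median difference of −0.10, against 0.01 for all measured genes. Of these 33, 5 (15.2%) were at least 1.5-fold lower, against the 5.79% of all measured genes given above, and 3 (9.09%) were at least 1.5-fold higher, against 8.81%. The 5 were SFXN2, CTH, SFXN3, CBS and FOLR1, and the 3 were SRR, TCN2 and MMAA. CBS and FOLR1 lie close to the threshold of 1.5-fold and missed it after median centring, which left 3 of the 33 lower; with the offset of 16, SRR was the 1 gene left on the higher side. At 2-fold, 2 of the 33 were lower, against 1.16% of all measured genes, and 1 was higher, against 2.21%.

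**Figure D3:**
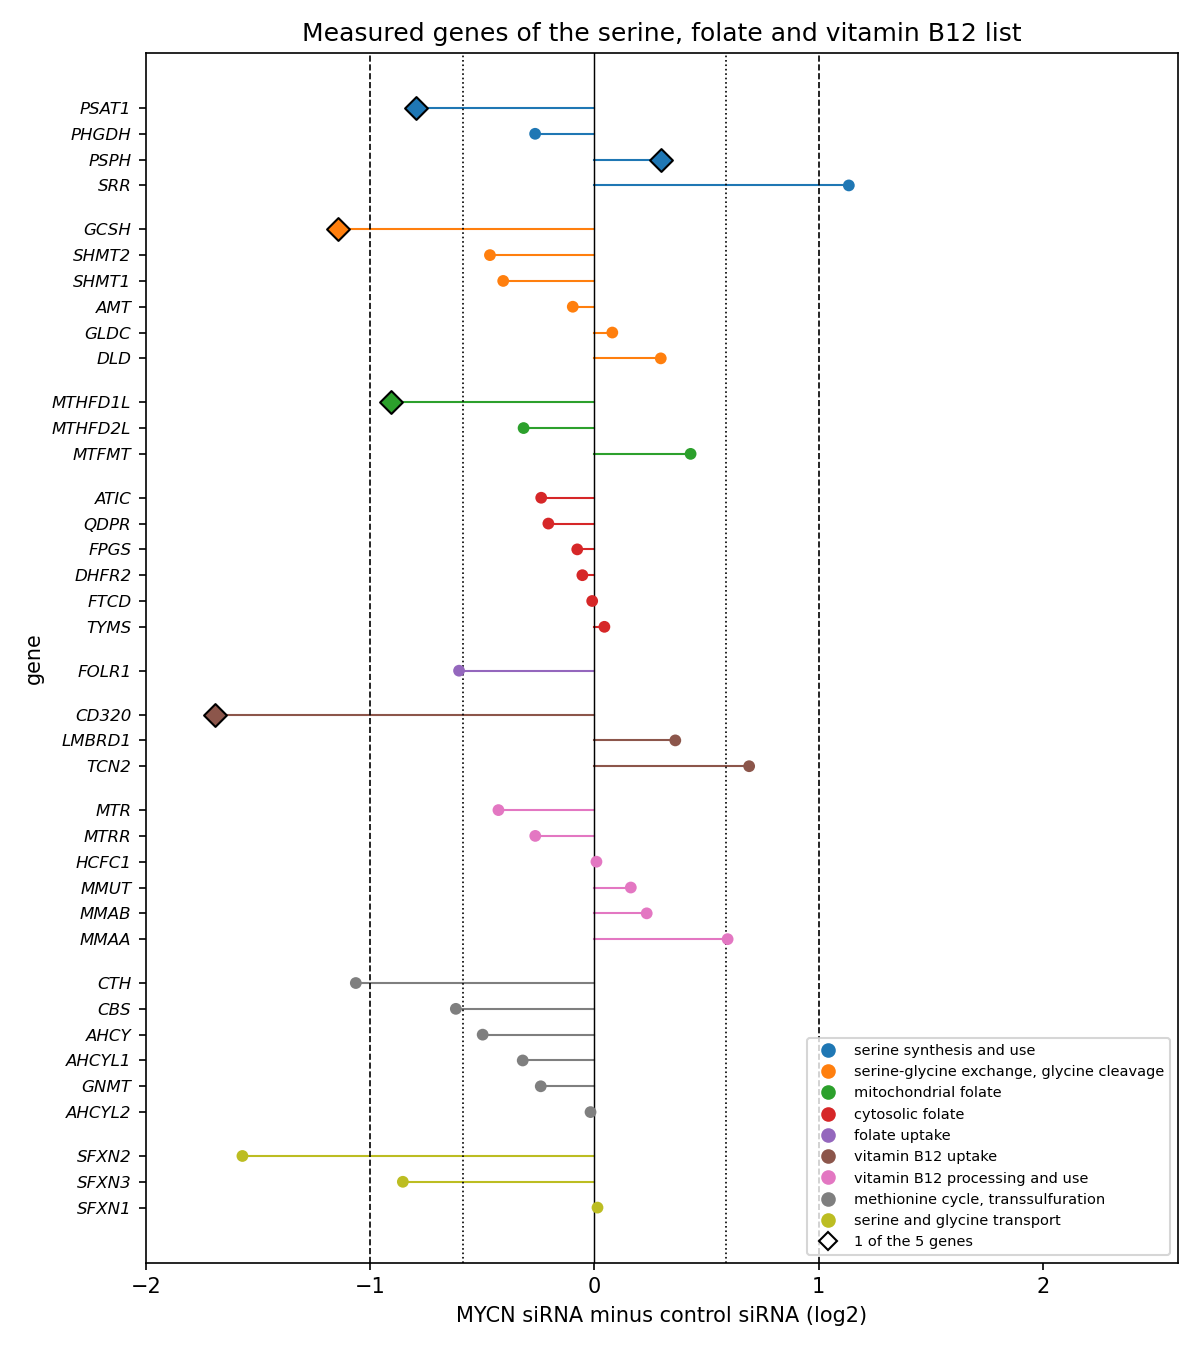
Difference between the MYCN siRNA and the control siRNA array (x axis, log2) for the 38 measured genes of the list, grouped by role and ordered within each; diamonds are the 5 genes, dotted lines mark 1.5-fold and dashed lines 2-fold. Genes listed under cytosolic folate cluster near 0. The 6 genes listed under methionine and transsulfuration lie left of 0, AHCYL2 barely so at −0.02. CD320 at −1.69 stands apart from LMBRD1 at 0.36 and TCN2 at 0.69.

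The pair of values over the 2 arrays was used to find the measured protein-coding genes most like each of the 5, by Euclidean distance on the log2 scale. CD320 was nearest to ERO1A (distance 0.22), SV2A (0.30) and MAP7D3 (0.34). A gene close in both values has a similar difference by the way it was found, so the direction of the nearest genes is no result. MTHFD1L was nearest to NAAA (0.05), METTL14 (0.08) and SENP5 (0.08), and PSAT1 to VMP1 (0.02), LRRC59 (0.10) and TRAP1 (0.11). PSPH was nearest to STARD3, PAPSS1 and PAPOLG, each at a distance of 0.03. GCSH was nearest to CABP5 (0.16), CNKSR1 (0.18) and LCE2D (0.20), which were dim as well. In the MYCN siRNA array they were at 3.68, 3.85 and 3.66, under its median of 4.55. Like GCSH they passed the filter through the control array alone. With 2 arrays such likeness is weak, and values of different probe sets do not compare amounts of RNA.

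Neighbouring genes were set beside the 5, taking the 2 nearest measured protein-coding genes on each side in RefSeq's order. Of the 20 neighbours, 2 were at least 1.5-fold lower, against 5.79% of all measured genes, and none was 1.5-fold higher, against 8.81%; a count of 2 in 20 is near that background. Both lie on the same side of GCSH: ATMIN, a DNA damage response factor, was at 9.37 in the MYCN siRNA array and 10.5 in the control array (−1.18), and CENPN, a centromere protein, was at 7.94 in the MYCN siRNA array and 8.88 in the control array (−0.95). CMIP and HSBP1 on its other side were at −0.34 and −0.05. The neighbours of CD320 ran from KANK3 at −0.29 to RPS28 at −0.13, and those of PSAT1 from VPS13A at −0.02 to FRMD3 at 0.39. Beside MTHFD1L they ran from ZBTB2 at −0.33 to ULBP1 at 0.54, and beside PSPH from SUMF2 at −0.37 to NIPSNAP2 at 0.10.

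The differences were recomputed after other normalizations of the deposited values, with the offset of 16, and with the brightest probe set standing for a gene. CD320 stayed between −1.71 and −1.62, MTHFD1L between −0.93 and −0.86, and PSAT1 between −0.79 and −0.74. PSPH stayed between 0.29 and 0.35. GCSH ranged from −1.14 to −0.62.

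**Figure D4:**
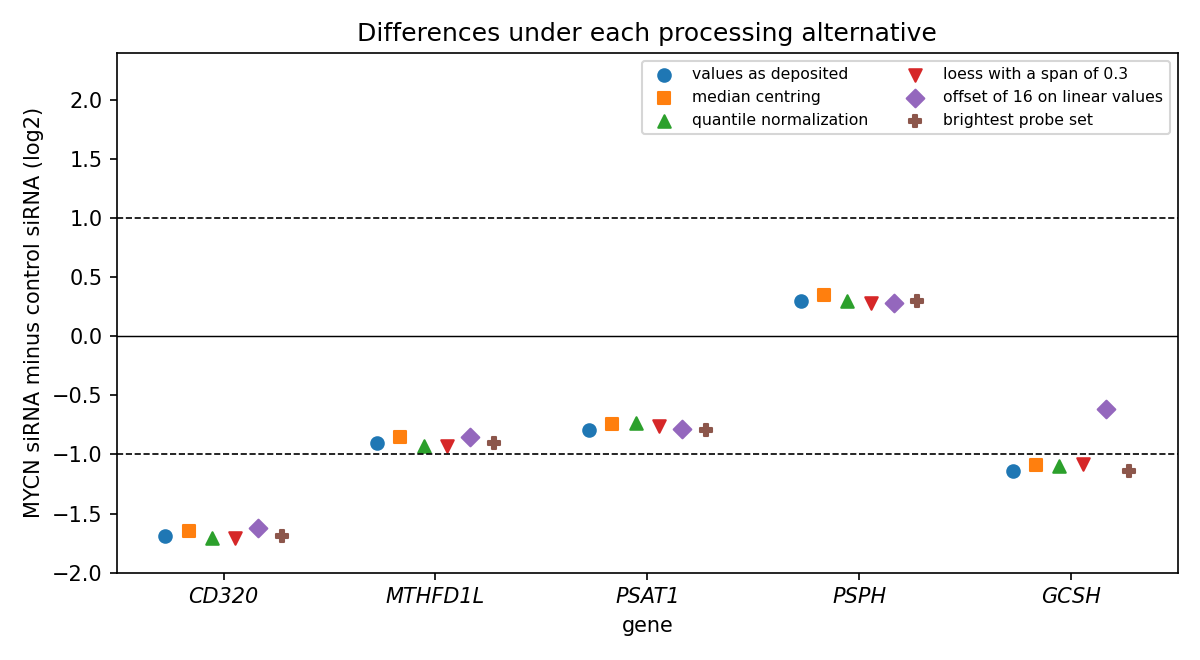
Difference between the MYCN siRNA and the control siRNA array (y axis, log2) for the 5 genes under the values as deposited and each alternative (marker shapes), with dashed lines at 2-fold. The markers of a gene nearly coincide except for GCSH, which lies at −0.62 with the offset of 16.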

How the data were processed

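RNA of 2 BE(2)C cultures (100 ng each) was hybridised to 1 array per group. Per the submitters' processing notes, RMA was the authors' method for the deposited log2 values; its software, version, settings and genome build were not given in the sources used. The table has 46255 rows, of which 15835 had 1 gene symbol, none several, and 30420 are unnamed here. All 15835 gene identifiers matched RefSeq (GRCh38.p14), used for names, gene types, gene order and promoter windows. Probe sets of a gene were averaged; 10592 of 14812 genes were measured. Differences are MYCN siRNA minus control siRNA. With 1 array per group no test was made.

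Named are the 5 genes, the highest, the lowest and any 1.5-fold gene of each role, and 3 nearest genes by values. The genes, lists and motifs were chosen with earlier results of these data known; neighbours, motifs and level bands were added after the data were seen. The 2-fold call was tried on simulated differences, and median, quantile and loess normalization on a constant shift. The filter, offset, ranks, level bands, probe-set SD, nearest genes, neighbours and motif search were not tested on simulated data. Python 3.11.15, pandas 2.3.3 and statsmodels 0.14.6 (loess, span 0.3) were used. MYCN itself is not reported here.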

Additional observations from a re-analysis of the deposited data

How the results depend on the processing

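Of 111 recomputed values, 105 moved by less than the probe-set SD (log2 values) or by at most 1.5 times (counts, shares and ranks), 6 moved by more, and none changed direction. The offset of 16 on linear values gave −0.62 for GCSH and also moved its rank. It left 1 list gene at least 1.5-fold higher in place of 3, moved the share of measured genes at least 2-fold higher to 1.17% in place of 2.21%, and put 0.0189% of genes at or below CD320 in place of 0.0566%. Leaving out the 5 genes gave 5 list genes at least 1.5-fold lower in place of 9. The filter at the 70th percentile left 2 list genes at least 1.5-fold higher in place of 3, and GCSH was removed by it, so its rank has no value there. No paired analysis was possible because each group has 1 array. Without a replicate no array could be left out. Each of the 5 genes has 1 probe set, so the brightest probe set changed none of their differences. Median centring shifts every difference by the same amount, so it could not move their ranks. The 105 therefore include values that could not move.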
